A study of Homo sapiens with 6 samples.

Results

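The D cyclins (CCND1, CCND2 and CCND3), their catalytic partners CDK4 and CDK6, the CDK inhibitors CDKN1A, CDKN1B, CDKN2C and CDKN2D, and the target RB1 were taken by gene name from a table of 28847 genes. All 10 were listed, and all 10 were among the 15676 genes that were abundant enough to be tested. The libraries come from human cells labelled THP-1, a monocytic leukaemia line that serves as a macrophage model, and the series describes them as M0 (unpolarized) macrophages. Of 6 poly(A)-selected RNA libraries, 3 were labelled as given recombinant human RBP4, the plasma carrier of retinol (RBP4 libraries), and 3 as THP-1 without it (control libraries). Neither a dose nor a duration of treatment is given, and whether the 3 libraries of a group came from separate cultures is not stated, so p-values measure the spread between libraries, which may be technical.

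Growth factor signals reach the cell cycle through the D cyclins, which are short-lived regulatory subunits made in G1. Bound to CDK4 or CDK6, they start the phosphorylation of the RB1 protein, which otherwise holds E2F transcription factors inactive, and released E2F switches on genes for DNA replication. Inhibitors of the INK4 family (among them CDKN2C, which encodes p18, and CDKN2D, which encodes p19) bind CDK4 and CDK6 alone, whereas inhibitors of the CIP/KIP family (CDKN1A, which encodes p21, and CDKN1B, which encodes p27) act on CDK2 complexes and also help to assemble cyclin D complexes. In red cell precursors, cyclin D3 is known from mice to set the number of divisions before maturation.

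The depth recovered from the deposited values was 15994483 to 16420517 reads in RBP4 libraries and 15202000 to 16149118 reads in control libraries. The labelled cell type did not match its markers. Of 15 monocyte and macrophage genes, 3 (CD33, SPI1 and CTSS) reached 10 CPM (reads scaled to a common library total) in all 6 libraries, and the monocyte receptor CD14 was at most at 0.132 CPM. Of 15 erythroid genes, 13 reached that level. The summed level of the monocyte list was 137 to 144 CPM in RBP4 libraries and 124 to 130 CPM in control libraries, and that of the erythroid list was 1851 to 1900.2 CPM and 2128 to 2143 CPM. Of 6 analysed T, NK and B cell genes, none reached 10 CPM in all libraries (sums of 9.94 to 10.6 CPM and 9.12 to 13.2 CPM), and of 4 analysed fibroblast and epithelial genes only EPCAM did (sums of 47.0 to 49.5 CPM and 58.8 to 63.3 CPM). No analysed marker was at 0 in all 6 libraries. Mitochondrially encoded genes took 7.58% to 7.69% of the signal in RBP4 libraries and 5.90% to 6.10% in control libraries. The part of these differences in the results below was not tested. In bulk RNA, fewer cells in a given phase of the cycle and less transcript per cell cannot be told apart.

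The comparison asked which of the D cyclins, their kinases and their inhibitors differed between RBP4 and control libraries. CDKN1A rose 2.59-fold and CCND1 1.78-fold, and these were the large changes of the set. CDK6 fell 1.17-fold and CCND2 fell 1.16-fold, while CCND3, CDK4 and RB1 rose by between 1.08-fold and 1.11-fold. CDKN1B, CDKN2C and CDKN2D did not pass the test. In all, 5 of the 10 genes rose, against a background of 24.5% of all genes tested, and 2 fell, against 26.1%, each with limma's p below 0.05 after Benjamini-Hochberg adjustment across the whole table. The share called was thus 70%, against 50.6% of all genes tested. With only genes at 5 CPM or more in at least 3 libraries tested, 7 of the 10 passed, beside 6655 of 11119 genes. In 6 of the 10 genes, or 60%, the groups were fully apart, against 56.2% of all genes tested. The median log2 fold change was 0.12 over the 10 genes and -0.0021 over all genes tested, and the median absolute change was 0.18, against 0.23 over all genes tested. On recovered reads edgeR called 7 of the 10, against 49.9% of all genes, and DESeq2 6, against 41.5%, while the authors' deposited table had 5 at an adjusted p below 0.05, against 20.6% of all 28847 genes listed, low ones included, and 37.2% of the 15676 tested here. A rise of at least 2-fold that passed was found in 1 of 10 (CDKN1A), against 4.44% of genes tested. Without RBP4 library 1 the raised genes numbered 3 in place of 5, since CDK4 and RB1 no longer passed, while 21.3% of all genes tested were raised in place of 24.5%.

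**Figure D1:**
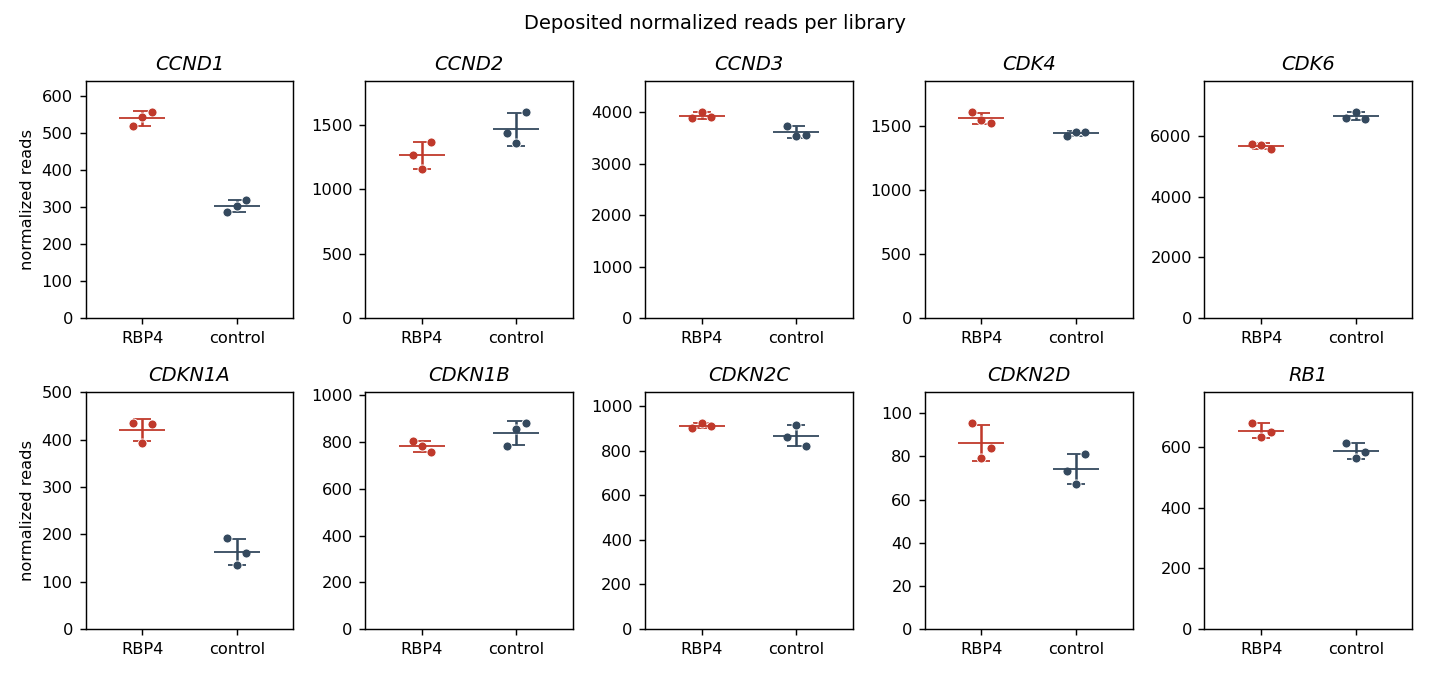
Deposited normalized reads (vertical axis, starting at 0) of each of the 10 genes in the 3 RBP4 and 3 control libraries; points are libraries, horizontal bars means and error bars SD. The RBP4 points lie clear above the control points for CCND1 (518 to 556, against 286 to 319) and CDKN1A (393 to 436, against 136 to 192), and clear below them for CDK6 (5569 to 5741, against 6561 to 6787).

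Among the D cyclins, CCND1, which encodes cyclin D1 and is a classical target of growth factor signalling, changed most. Its values were 518, 542 and 556 normalized reads (reads divided by 1 size factor per library) in RBP4 libraries 1, 2 and 3, against 286, 302 and 319 in control libraries 1, 2 and 3. The lowest RBP4 library lay well above the highest control library. The means were 539 ± 19.2 and 302 ± 16.7 normalized reads (SD, n = 3 each), and the log2 fold change on the log2(value + 1) scale was 0.83 (SE 0.073, limma adjusted p = 9.7e-16). CCND1 lies on chromosome 11 (69641087 to 69654474, GRCh38, ENSG00000110092). The gene LTO1 on the opposite strand shares 10.3% of its exon bases, and reads there could not be assigned by strand. LTO1 itself had 381 normalized reads in RBP4 libraries and 363 in control libraries (adjusted p = 0.455).

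CCND2, which encodes cyclin D2 and lies on chromosome 12 (4273772 to 4305350, ENSG00000118971), fell. It had 1269, 1160 and 1365 normalized reads in RBP4 libraries 1, 2 and 3, against 1439, 1357 and 1602 in control libraries 1, 2 and 3. The groups overlapped, because RBP4 library 3 stood slightly above control library 2. The log2 fold change was -0.21 (SE 0.059, adjusted p = 0.0052 in limma), and the call held without any single library (highest adjusted p = 0.034), with 0.044 after scaling to total signal. The protein-coding gene AC008012.1 on the same strand shares 13.8% of the exon bases of CCND2 and was not analysed here.

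CCND3, which encodes cyclin D3 and lies on chromosome 6 (41934933 to 42050357, ENSG00000112576), had 3889, 4009 and 3903 normalized reads in RBP4 libraries, against 3745, 3536 and 3567 in control libraries. All 3 RBP4 libraries were above all 3 control libraries, by a small margin. Its log2 fold change was 0.12 (SE 0.032, adjusted p = 0.00086 in limma), or 0.19 with the libraries scaled to their total signal.

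The 2 kinases that the D cyclins activate changed in opposite directions. CDK6, on chromosome 7 (92604921 to 92836594, ENSG00000105810), had 5741, 5688 and 5569 normalized reads in RBP4 libraries 1, 2 and 3, against 6599.8, 6787 and 6561 in control libraries 1, 2 and 3. The groups were well separated and narrow, with means of 5666 ± 87.8 and 6649 ± 121 (SD, n = 3 each). The log2 fold change was -0.23 (SE 0.028, adjusted p = 7.8e-11 in limma). With the libraries scaled to their total signal it was -0.16.

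CDK4, on chromosome 12 (57747727 to 57756013, ENSG00000135446), had 1607, 1546 and 1524 normalized reads in RBP4 libraries 1, 2 and 3, against 1417, 1453 and 1449 in control libraries 1, 2 and 3. The groups did not overlap, and the rise was 1.08-fold (log2 fold change 0.11, SE 0.042, adjusted p = 0.018 in limma). The call was lost without RBP4 library 1 (adjusted p = 0.115) or control library 1 (0.054), in a range of 0.0002 to 0.115 over the alternatives, and the adjusted p was 0.080 in the authors' deposited table. Scaling to total signal gave a log2 fold change of 0.18. TSPAN31, on the opposite strand, shares 43.2% of the exon bases of CDK4. It stood at 312 normalized reads in RBP4 libraries and 271 in control libraries (adjusted p = 0.040), and without strand the reads of the shared part cannot be told apart.

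The promoter of CDK4 (chr12:57752261-57752560, minus strand, GRCh38.p14, from RefSeq, 250 bases before to 50 after the start) is shown because MYC, which acts through the E-box CACGTG and is known to drive CDK4, fell in the same libraries. Capitals mark CACGTG, which reads the same on both strands.
CDK4: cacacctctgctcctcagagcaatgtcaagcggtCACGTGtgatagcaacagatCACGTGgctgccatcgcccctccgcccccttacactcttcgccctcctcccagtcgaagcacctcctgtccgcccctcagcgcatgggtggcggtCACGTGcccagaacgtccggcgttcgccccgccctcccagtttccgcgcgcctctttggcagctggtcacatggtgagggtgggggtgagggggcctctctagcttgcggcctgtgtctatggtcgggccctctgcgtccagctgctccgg
It held 3 matches. Of all 35116 RefSeq promoter windows of this length, 7.26% held at least 1. MYC itself had 5464 ± 138 normalized reads in RBP4 libraries and 7504 ± 282 in control libraries (log2 fold change -0.46, adjusted p = 1.8e-22 in limma), so MYC and CDK4 transcripts moved in opposite directions. CACGTG also had 1 match in window 1 of CDK6 and 1 match in each of windows 1 and 3 of CDKN2C. CDK6 fell, as MYC did (log2 fold change -0.23), and CDKN2C did not pass (0.077). Genes of the set with a match thus rose, fell or did not pass, and the part of MYC in these differences was not tested. A match of letters describes the window and does not show binding.

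CDKN1A, on chromosome 6 (36676460 to 36687339, ENSG00000124762), encodes p21, an inhibitor of CDK2 that p53 and several p53-independent signals induce. It had 436, 393 and 433 normalized reads in RBP4 libraries 1, 2 and 3, against 192, 136 and 160 in control libraries 1, 2 and 3. All RBP4 libraries stood far above all control libraries. The means were 421 ± 24.1 and 163 ± 28.5 normalized reads (SD, n = 3 each), and the log2 fold change was 1.38 (SE 0.098, limma adjusted p = 2.1e-18). The size of this change exceeded that of 97.6% of all genes tested, and that of CCND1 exceeded 91.1%. The long non-coding gene DINOL on the opposite strand shares 146 exon bases with CDKN1A and was not analysed here.

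CDKN1B, the close relative of CDKN1A that encodes p27, did not pass the test. It lies on chromosome 12 (12715058 to 12722371, ENSG00000111276). Its values were 806, 784 and 757 normalized reads in RBP4 libraries 1, 2 and 3, against 782, 854 and 883 in control libraries 1, 2 and 3. The groups overlapped, and the log2 fold change of -0.10 did not pass (SE 0.055, 95% interval -0.21 to 0.0084, adjusted p = 0.118 in limma). Without control library 1 it was -0.15 and passed (adjusted p = 0.028), in a range of 0.028 to 0.647 over the alternatives. Without control library 3 it was -0.064 and with scaling to total signal -0.033, and neither passed.

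The promoters of both CIP/KIP genes are shown, since CDKN1A rose and CDKN1B did not pass. They come from RefSeq (GRCh38.p14), on the plus strand at chr6:36678464-36678763 for CDKN1A and chr12:12717118-12717417 for CDKN1B. Capitals mark the GC box GGGCGG or its reverse complement CCGCCC.
CDKN1A: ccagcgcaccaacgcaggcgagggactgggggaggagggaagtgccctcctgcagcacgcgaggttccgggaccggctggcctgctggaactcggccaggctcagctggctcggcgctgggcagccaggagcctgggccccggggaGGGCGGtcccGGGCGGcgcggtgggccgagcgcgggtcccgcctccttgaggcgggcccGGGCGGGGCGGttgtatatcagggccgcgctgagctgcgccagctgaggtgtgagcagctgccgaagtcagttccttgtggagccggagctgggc
CDKN1B: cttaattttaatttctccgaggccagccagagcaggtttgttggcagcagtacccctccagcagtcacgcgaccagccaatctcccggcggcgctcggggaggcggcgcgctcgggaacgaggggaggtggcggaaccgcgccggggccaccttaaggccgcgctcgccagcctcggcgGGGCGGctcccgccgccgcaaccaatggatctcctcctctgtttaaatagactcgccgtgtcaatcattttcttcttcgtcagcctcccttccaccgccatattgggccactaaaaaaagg
The CDKN1A window held 4 matches, of which 2 overlap, and the CDKN1B window held 1. Of all such windows, 45.0% held at least 1. Neither window held the E2F-type letters TTTNNCGC (6.89% of all windows), the composite C/EBP-ATF letters TGATGNAA (3.62%) or the E-box, searched on both strands. Promoter entries were found for 8 of the 10 genes, and among their 13 windows TTTNNCGC occurred only in that of CDKN2D and TGATGNAA in none. GC box matches numbered 5, 4 and 0 in the 3 CCND3 windows, 3 in that of CDK4, and 3 and 0 in those of CDK6. They numbered 0, 6 and 1 in the CDKN2C windows, 3 in that of CDKN2D and 0 in that of RB1. Windows with 3 or more matches thus belonged to genes that rose, fell or did not pass.

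The INK4 inhibitors showed no difference that passed. CDKN2C, on chromosome 1 (50960745 to 50974633, ENSG00000123080), had 901, 926 and 913 normalized reads in RBP4 libraries 1, 2 and 3, against 861, 917 and 822 in control libraries 1, 2 and 3. The groups overlapped, through control library 2. The log2 fold change was 0.077 (SE 0.052, 95% interval -0.027 to 0.18, adjusted p = 0.22 in limma). With the libraries scaled to their total signal it was 0.15 and passed (adjusted p = 0.017), in a range of 0.017 to 0.593 over the alternatives. Without control library 2 it was 0.118 and without control library 3 0.040, and neither passed.

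CDKN2D, on chromosome 19 (10566462 to 10569059, ENSG00000129355), was the lowest gene of the set, with 95.7, 79.3 and 83.9 normalized reads in RBP4 libraries 1, 2 and 3, against 73.5, 67.4 and 81.4 in control libraries 1, 2 and 3. The groups overlapped, and the interval was wide (log2 fold change 0.22, SE 0.16, 95% interval -0.10 to 0.54, adjusted p = 0.261 in limma). The log2 fold change of RB1 lies within that interval. Without RBP4 library 1 the value for CDKN2D was 0.14. CDKN2A and CDKN2B, the other INK4 genes, were not analysed here.

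RB1, on chromosome 13 (48303726 to 48599436, ENSG00000139687), encodes the substrate of the cyclin D kinases. It had 681, 632 and 649.6 normalized reads in RBP4 libraries 1, 2 and 3, against 614, 563 and 585 in control libraries 1, 2 and 3. All RBP4 libraries were higher than all control libraries, but the margin was smaller than the spread within either group. The log2 fold change was 0.16 (SE 0.060, adjusted p = 0.027 in limma). That call was lost without RBP4 library 1 (adjusted p = 0.135), RBP4 library 3 (0.051), control library 2 (0.119) or control library 3 (0.052), with DESeq2 (0.069) and with no filter on low genes (0.054), in a range of 0.0015 to 0.135, and the adjusted p was 0.136 in the authors' deposited table.

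**Figure D2:**
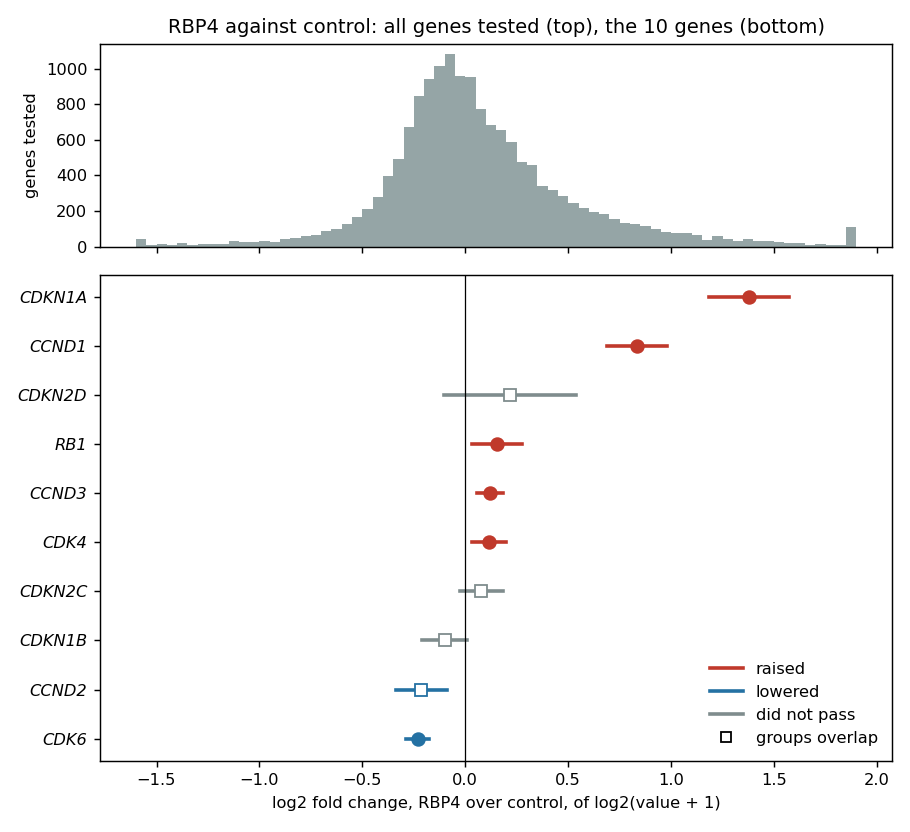
Top, number of genes tested by log2 fold change (RBP4 over control, of log2(value + 1)), with values beyond the axis gathered in the outermost bins; bottom, log2 fold change of the 10 genes with 95% intervals, squares marking genes whose groups overlap. CDKN1A at 1.38 and CCND1 at 0.83 stand in the right tail, and the other 8 genes lie between -0.23 and 0.22, within the bulk of all genes tested.

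Levels were compared between genes as normalized reads per kilobase of the gene length given in the deposited table. CCND3 was the most abundant of the 10 genes in both groups, with 678 normalized reads per kilobase in RBP4 libraries and 623 in control libraries. In RBP4 libraries the order continued with CDK4 (492) and CDK6 (462), whereas in control libraries CDK6 (542) stood above CDK4 (454), and in neither group did the libraries of these neighbours overlap. The order of CDK4 and CDK6 depends on the gene lengths used (3168 and 12260 bases). TSPAN31 shares 43.2% of the CDK4 exon bases, and its part in the level of CDK4 was not tested. CDKN1B (278 and 299 in RBP4 and control libraries), CDKN2C (275 and 261) and CCND2 (177 and 205) came next. CDKN1B and CDKN2C overlapped in RBP4 libraries and not in control libraries.

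The lower end of that order differed more between the groups. In RBP4 libraries it ran CDKN1A (138 normalized reads per kilobase), CCND1 (112), RB1 (101) and CDKN2D (57.4), with no overlap between neighbours. In control libraries it ran RB1 (91.0), CCND1 (62.6), CDKN1A (53.3) and CDKN2D (49.3), where CDKN1A overlapped both CCND1 and CDKN2D. CDKN1A thus stood seventh of the 10 genes in RBP4 libraries and ninth in control libraries.

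**Figure D3:**
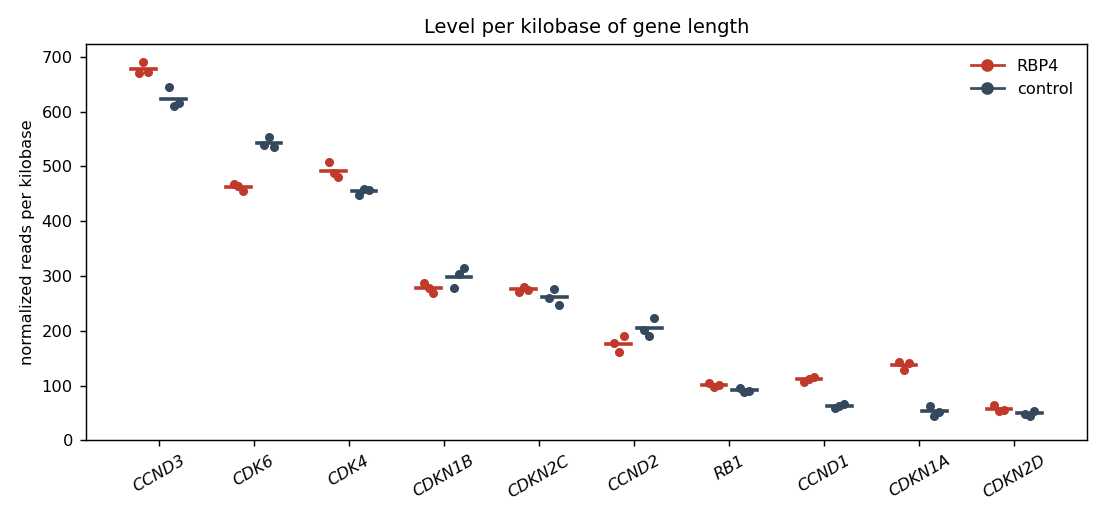
Normalized reads per kilobase of gene length (vertical axis, starting at 0) for the 10 genes, ordered by their control mean; points are libraries and bars means, RBP4 at left and control at right within each gene. CCND3 is highest in both groups (678 and 623), CDK4 and CDK6 exchange places, and CDKN1A stands above CCND1 in RBP4 libraries and near CDKN2D in control libraries.

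Per kilobase, CCND3 made up 70.2% ± 1.42 of the D cyclin signal in RBP4 libraries and 70.0% ± 1.78 in control libraries (SD, n = 3 each). CCND1 held 11.5% ± 0.275 in RBP4 libraries and 7.03% ± 0.433 in control libraries, and CCND2 held 18.3% ± 1.38 and 23.0% ± 1.53. The makeup of the D cyclins thus shifted between its 2 minor parts, with the major one at about the same share. Among the 4 inhibitors, CDKN1A held 18.4% ± 0.889 in RBP4 libraries and 8.06% ± 1.54 in control libraries, and CDKN1B held 37.2% ± 0.760 and 45.1% ± 2.10. The summed signal per kilobase of the D cyclins was 966 ± 11.9 in RBP4 libraries and 891 ± 25.2 in control libraries, and that of the inhibitors was 749 ± 13.9 and 663 ± 11.1. The sum of CDK4 and CDK6 was 954 ± 20.1 in RBP4 libraries and 997 ± 13.8 in control libraries, a difference whose direction flipped with scaling to total signal (977 ± 22.7 and 974 ± 13.2).

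Apart from the effect of the 1 added to each value, ratios of 2 genes within a library do not depend on how libraries are scaled. Of such ratios, 5 were compared. The log2 ratio of CDK6 to CDK4 was 1.84, 1.88 and 1.87 in RBP4 libraries 1, 2 and 3, against 2.22, 2.22 and 2.18 in control libraries 1, 2 and 3, a difference of -0.35. It was the tightest of the 5 ratios, with an SD of 0.022 and 0.025. The log2 ratio of CDKN1A to CDKN1B differed by 1.48 (means -0.90 ± 0.095 and -2.37 ± 0.322), that of CCND1 to CCND3 by 0.71 (-2.87 ± 0.051 and -3.58 ± 0.118), and that of CCND2 to CCND3 by -0.33 (-1.64 ± 0.139 and -1.30 ± 0.130). In each of these 4 ratios all RBP4 libraries lay on one side of all control libraries. The exact two-sided permutation test gave p = 0.1 for each, the smallest that 3 against 3 libraries allow (0.125 adjusted over the 5 ratios). The ratio of CDKN2C to CDKN2D overlapped between the groups (difference -0.14, exact permutation p = 0.4, adjusted p = 0.4). That difference was -0.055 without RBP4 library 1, -0.034 without control library 2 and -0.25 without control library 3.

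**Figure D4:**
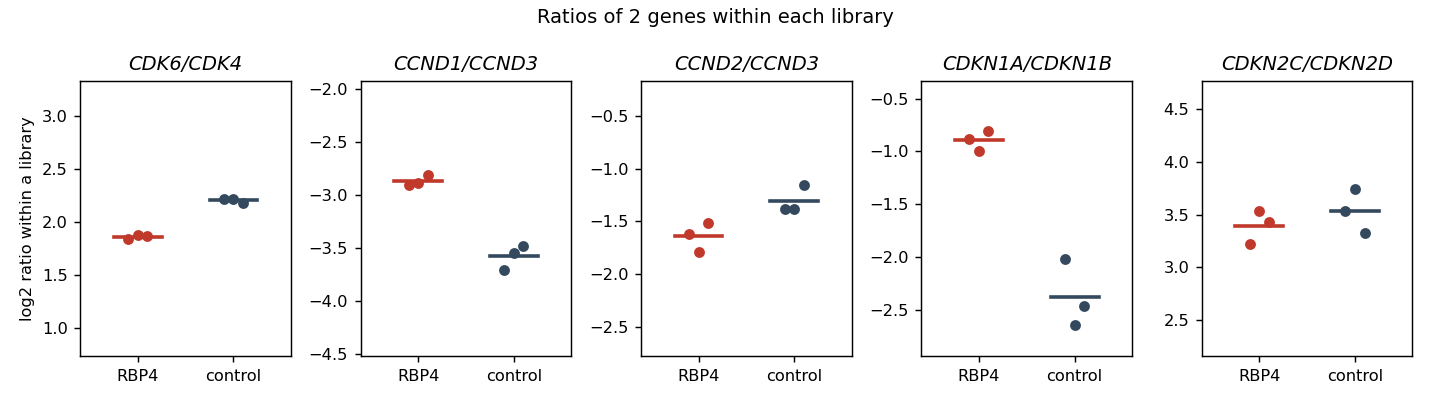
log2 ratio of 2 genes within each library (vertical axes of equal height, 2.6 log2 units), from normalized reads with 1 added; points are libraries and bars means, RBP4 at left. Groups are apart in the first 4 panels, most widely for CDKN1A over CDKN1B (-0.90 against -2.37), and overlap for CDKN2C over CDKN2D.

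Other genes of the G1 to S transition were described by counts, set against the background of 24.5% raised and 26.1% lowered genes. With scaling to total signal that background was 30.8% raised and 19.1% lowered, and each count under that scaling below is to be read against it. Of 8 tested genes for the E and A cyclins, CDK2 and the activation of CDKs, 6 fell and none rose, at a median of -0.22 on the log2 fold change scale, and 2 missed the threshold. CCNA2, the S-phase cyclin A2, fell to 2801 ± 52.6 normalized reads in RBP4 libraries, against 3878 ± 63.7 in control libraries (adjusted p = 1.6e-20 in limma). CDK2, the kinase that p21 inhibits, fell 1.20-fold, its activating phosphatase CDC25A 1.21-fold and MNAT1, an assembly factor of the CDK-activating kinase, 1.29-fold. The cyclin E genes CCNE1 and CCNE2 were the 2 that did not pass. With scaling to total signal 4 of the 8 fell, against 19.1% of all genes tested.

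Of the 2 further CDK inhibitor genes analysed, CDKN1C, which encodes p57 of the CIP/KIP family, fell and CDKN3 did not pass. CDKN1C had 586 ± 11.9 normalized reads in RBP4 libraries and 887 ± 17.1 in control libraries (log2 fold change -0.60, SE 0.056, adjusted p = 1.2e-14 in limma). The 3 CIP/KIP genes thus gave a rise (CDKN1A), a fall (CDKN1C) and a difference that did not pass (CDKN1B).

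Of 18 E2F target genes of G1 and S phase, 15 fell, 2 rose and 1 (TK1) missed the threshold. Their median was -0.23 on the same scale, and 14 fell and 2 rose with scaling to total signal, against 19.1% and 30.8% of all genes. The helicase subunits MCM7 and MCM4 fell 1.36-fold and 1.33-fold, PCNA, the sliding clamp that p21 also binds, 1.38-fold, and the repair enzyme UNG 1.42-fold. The 2 that rose were the licensing factors CDT1 (1.19-fold) and CDC6 (1.11-fold). Both were named after their values were seen, like TK1, MDM2, CCNG1, CCNE1, CCNE2, CDKN3, FBXO4, FBXW8, FBXO31 and UBAC1. Of 17 genes of the RB family, E2F, DP and DREAM subunits, 7 fell, 2 rose and 8 missed the threshold (median -0.070; with scaling to total signal 5 fell and 3 rose, against 19.1% and 30.8% of all genes). RBL2, a relative of RB1, fell 1.18-fold, RBBP4, a histone-binding subunit, 1.12-fold, and E2F8, an atypical E2F that represses, 1.25-fold, while TFDP2, a partner of E2F proteins, rose 1.16-fold.

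Of 18 genes for the turnover of D cyclins, p21 and p27, 8 fell, 4 rose and 6 missed the threshold (median -0.086; with scaling to total signal 6 fell and 4 rose, against the same shares). SKP2, which marks p27 for degradation, fell 1.24-fold and its adaptor SKP1 1.20-fold. DTL, the receptor of the ligase that degrades p21 in S phase, fell 1.19-fold, and DDB1, an adaptor of that ligase, 1.25-fold. The 4 that rose were FBXO4 (1.26-fold, with overlapping groups), FBXW8 (1.21-fold), FBXO31 (1.10-fold) and UBAC1 (1.07-fold). Of 15 tested genes of the p53 pathway, 8 rose, 2 (MDM2 and CCNG1) fell and 5 missed the threshold (median 0.16). With scaling to total signal 9 rose and 0 fell, against 30.8% and 19.1% of all genes. The p53 list held 18 genes, and the remaining ones were too low in both groups to be tested. TNFRSF10B, a death receptor that both p53 and DDIT3 can induce, rose 1.42-fold, BBC3, which encodes the cell death protein PUMA, 1.51-fold, BTG2 1.31-fold and GADD45A, a stress-induced growth inhibitor, 1.23-fold.

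Of 16 transcription factors known to act on these genes, 5 rose, 5 fell and 6 missed the threshold (median 0.028; with scaling to total signal 5 rose and 5 fell, against the same shares). DDIT3 (4.85-fold) and ATF4 (1.42-fold), factors of the integrated stress response, and CEBPB (2.22-fold), which can pair with DDIT3, rose, and MYC, a known repressor of CDKN1A, fell 1.37-fold. Over all 15676 genes tested the median log2 fold change was -0.0021, and scaling to total signal moved it by 0.068. That scaling also raised the share of raised genes among all calls to 61.7%, against 48.4% as deposited.

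**Figure D5:**
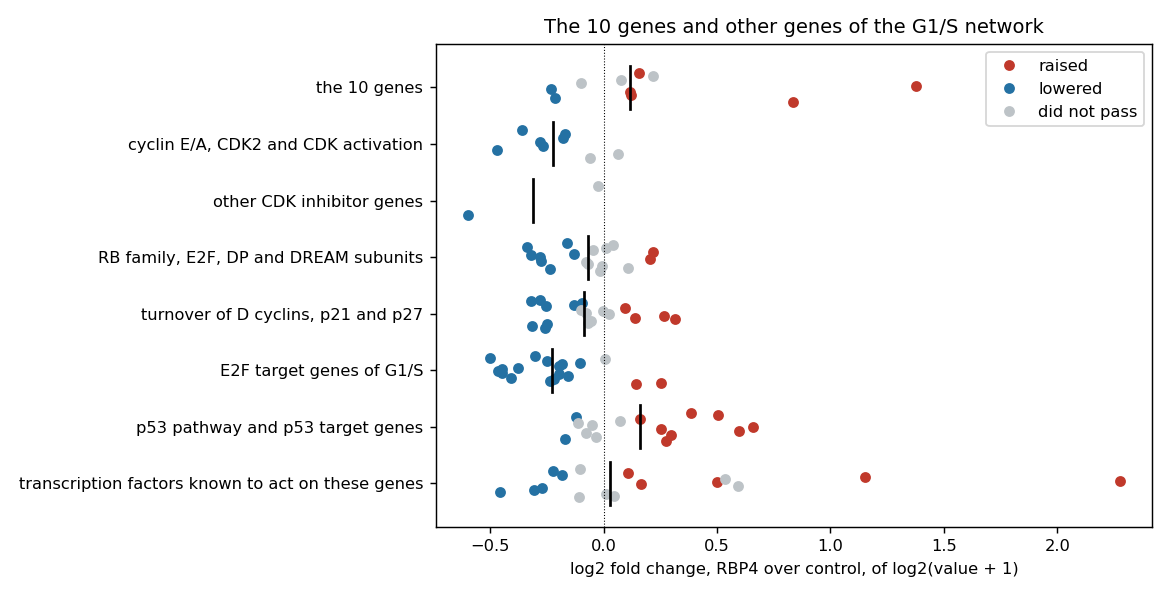
log2 fold change (RBP4 over control, of log2(value + 1)) of the 10 genes and of the tested genes of the 7 lists; each point is a gene, coloured by its call, and black bars are medians. The medians run from -0.31 for the 2 other CDK inhibitor genes and -0.23 for the E2F targets to 0.16 for the p53 pathway genes.

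Of 10524 genes averaging at least 100 normalized reads, those with values most like CDKN1A over the 6 libraries were SH3BP2, FILIP1L and C22orf46, with root-mean-square distances of 0.095, 0.099 and 0.106 between centred log2(value + 1) values. Those most like CDK6 were BTBD1, MARCH6 and ATP11B, at 0.0123, 0.0125 and 0.0125. These distances describe the 6 libraries, which fall into 2 groups, and many genes share such a step.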

How the data were processed

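The authors deposited, for each gene, a normalized signal in each library, group means, and their own log2 fold change, p-value and adjusted p-value, per the file headers. Poly-T bead selection and a NEBNext Ultra kit, which does not mark strand, are given per the labels' protocols. The sources used here do not give the aligner, counter or build. All 28847 genes had the start and end of GENCODE 29 (GRCh38). In every library the deposited signal came in whole steps of 1 read (100% of values within 0.01 reads), so reads were recovered by division. In control library 2 the step was 1.01. Within groups, pairs of libraries differed by 1.82 to 2.24 times the variance of counting alone, so none was a repeat deposit.

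edgeR had been planned for counts. Because the values are normalized, limma-trend with robust moderation (R 4.3.3, limma 3.58.1) was fitted to log2(value + 1) of genes at 10 or more in 3 or more libraries, two-sided, without a replicate block, at a threshold of 0.05. Ratios were tested by exact permutation. Alternatives were edgeR 4.0.16 and DESeq2 1.42.0 on recovered reads, scaling to total signal, a pseudocount of 5, other filters, the replicate block, protein-coding genes alone and each library left out. Folds in the text are ratios of mean normalized reads, and SE belongs to the log2 fold change. The genes and lists were chosen with earlier results of these data known. Named were all 10 genes, up to 4 genes per list with the smallest p past the threshold, and the 3 genes nearest in pattern to CDKN1A and CDK6, the raised and lowered genes with the largest change. CCNE1, CCNE2, CDKN3, CDT1, CDC6, TK1, MDM2, CCNG1, FBXO4, FBXW8, FBXO31 and UBAC1 fall outside this rule and were named after their values were seen. Columns of per-sample values not used numbered 0.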

Additional observations from a re-analysis of the deposited data

How the results depend on the processing

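No log2 fold change of the 10 genes and no ratio changed direction under the alternatives run. Of 362 recomputed values, 351 were counted as unchanged, and the 11 others concern 5 results. Unchanged meant the same direction and side of the threshold for fold changes, and within 1.5 times for counts. For ratios it meant the same direction alone, whatever the size. RB1 gave 0.16 (adjusted p = 0.054) with no filter and 0.16 (0.069) with DESeq2, and between 0.13 and 0.19 with single libraries left out. CDK4 gave between 0.093 and 0.13 and CDKN1B between -0.15 and -0.064 with single libraries left out. CDKN2C gave 0.15 (0.017) with scaling to total signal. The raised genes of the set numbered 3 to 5 with single libraries left out, beside 21.2% to 23.3% of all genes tested. The cause was not tested, beyond the loss of a library itself. CDKN2D, at a mean of 5.57 CPM in RBP4 libraries and 4.56 CPM in control libraries, had the fewest reads of the set, and the part of depth in its wide interval was not tested.

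With the replicate number as a replicate block, CDKN1A gave 1.38, CCND1 0.83 and CDK6 -0.23, 7829 genes were called against 7934, and the block changed no call among the 10 genes. Over all genes tested, same-numbered libraries showed no shared deviation: their deviations from the group means correlated at 0.0037, -0.0079 and -0.017. Such correlations cannot show whether these libraries were handled as pairs, or whether single genes deviated together.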
